A study of Arabidopsis thaliana with 21 samples.

Results

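The 6 libraries described here compared seedlings that had lost the SPA proteins with seedlings carrying a weak *cop1* allele, both harvested after 1 h of red light. They were the 3 *spaQ* and the 3 *cop1-4* red light libraries, chosen by genotype and treatment from 21 libraries in the series. The *spaQ* line is mutated in each of the 4 *SPA* genes. The *cop1-4* line carries a viable, partial loss-of-function allele of *COP1*. A strong and a partial lesion in the same ubiquitin ligase were set against each other. Both lines are in the Col-0 ecotype. Seedlings were 3 days old, raised on medium without sucrose, given far-red light (10 µmol per m2 per s) after germination had been induced, kept in the dark for a further period, and exposed to red light (8 µmol per m2 per s in the labels, while the study's methods give a lower fluence rate) for 1 h. The 3 Col-0 libraries of the same age and light treatment, from wild-type plants, served as the reference level. Only red light libraries of these lines were used, so a difference already present in darkness and one made by the light cannot be told apart.

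COP1 is a RING-type ubiquitin ligase that, together with SPA proteins, marks transcription factors of light signalling for degradation in darkness. SPA proteins carry a coiled coil that binds COP1 and WD repeats that contact substrates, and the complex works as a substrate adaptor of a CUL4-DDB1 ligase. Its best known targets include HY5 and the MYB factors PAP1 and PAP2 of anthocyanin synthesis, and light suppresses it through phytochromes and cryptochromes. Dark-grown seedlings without the complex develop partly as if in the light.

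The mutated genes themselves separated the lines. *SPA1* (AT2G46340) was read at 213, 214 and 209 CPM (the counts of a gene scaled to the effective size of its library) in the *cop1-4* replicates and at 39.0, 38.5 and 42.3 CPM in the *spaQ* replicates. The groups did not overlap, and the difference was -2.41 ± 0.05 (log2 fold change of *spaQ* over *cop1-4* ± SE, here and below; edgeR adjusted p = 5.9e-22). *SPA3* (AT3G15354) behaved alike, with 109 to 114 CPM in *cop1-4* and 22.8 to 25.7 CPM in *spaQ* (-2.17 ± 0.06, edgeR adjusted p = 1.8e-20). *SPA2* differed by -0.04 ± 0.06 and *SPA4* by 0.45 ± 0.05, neither of them called, and counts over a whole gene need not report a lesion that leaves a transcript. *COP1* (AT2G32950) itself lay at 36.6 to 39.4 CPM in *cop1-4* and at 76.5 to 89.7 CPM in *spaQ*, with Col-0 between them at 66.1 to 70.4 CPM (1.13 ± 0.06, edgeR adjusted p = 4.1e-14). Of the 10 genes listed for the ligase, the remaining 7, which include *CUL4*, *DDB1A* and *DET1*, were not called.

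**Figure D1:**
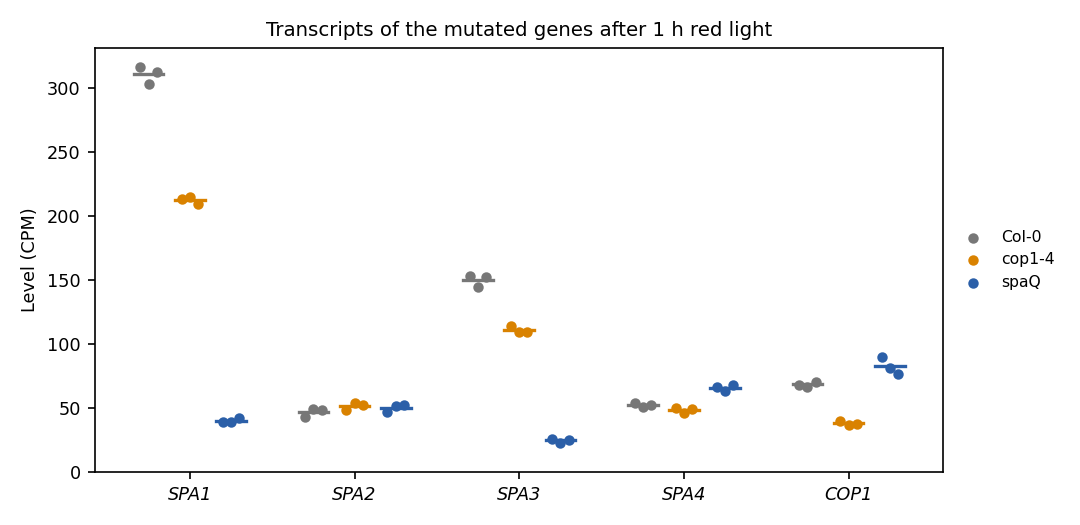
Level of *SPA1* to *SPA4* and *COP1* in CPM on a linear axis from 0, with 1 point per library and a line at the mean of 3 libraries, for Col-0, *cop1-4* and *spaQ* after 1 h of red light. *SPA1* and *SPA3* lie at or below 42.3 CPM in every *spaQ* library, and *COP1* is lowest in the *cop1-4* libraries.

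Across the genome the 2 lines were more often separated by genes that were lower in *spaQ*. Of 20396 genes tested, 1737 (8.52%) were called, that is, they had an edgeR adjusted p under 0.05 and differed by more than 1 on the log2 scale. Of these, 588 genes (2.88% of those tested) were higher and 1149 (5.63%) were lower in *spaQ*. The CPM ranges of the groups did not overlap for 1695 of the 1737, which follows largely from the rule for a call and is not separate support. Past 4-fold the numbers were 232 higher and 294 lower, and past 16-fold they were 95 higher and 40 lower. The median over all genes tested was 0.00, and the quartiles were -0.28 and 0.25. Against Col-0, by the same rule, *spaQ* had 3059 genes higher (15%) and 3571 lower (17.5%), and *cop1-4* had 2173 higher (10.7%) and 2677 lower (13.1%). These comparisons share libraries with each other and with the main one, so their values are only set side by side.

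The 6 libraries held 16358264 to 24338460 counts, and 3 counts, taken as the detection floor, equalled 0.134 to 0.188 CPM, a limit that covers counting error only. Biological variation between replicates was small (coefficient 4.34% in *cop1-4* and 5.83% in *spaQ*). The labels do not say that replicates came from separate cultures, so the p-values measure only the spread between these samples. By chi-square per gene, *spaQ* replicate 1 differed from its partners by 6.51 and 5.6, beside 2.51 for the other *spaQ* pair and 2.32 to 3.1 within *cop1-4*. Another library stood apart in a set of genes: in *cop1-4* replicate 2, 30 genes were over 4 times above both other *cop1-4* replicates, all 30 of them genes called higher in *spaQ*, and no gene did so in any of the other 5 libraries. They include genes of seed storage and late embryogenesis, so those groups are given with and without that library. Why it stood apart was not tested. Whole seedlings were sampled, and fewer cells of a type and less RNA per cell cannot be told apart. Markers of an etiolated seedling were detected in both lines and not called. Among them were *PHYA* (346 CPM on average in *spaQ*, 430 in *cop1-4* and 611 in Col-0), the apical hook gene *HLS1* and the shoot meristem gene *STM*. Against Col-0, *HLS1* and *STM* differed by -1.60 and -1.21 in *spaQ* and by -1.32 and -0.91 in *cop1-4*. *PORA*, checked with them, was nearly absent from both lines, at 3.95 CPM in *spaQ* and 2.12 in *cop1-4* beside 1129 in Col-0. It was called higher in *spaQ* without *cop1-4* replicate 1 (1.24) or *spaQ* replicate 1 (1.25). Of the other tissue lists, the shares called were 0 of 12 for guard cells, 0 of 16 for cell division and 0 of 12 for shoot meristem and leaf polarity, with medians of 0.04, -0.35 and -0.21. In the stomatal lineage list 2 of 17 were lower and 0 higher (median -0.37), in the xylem and secondary wall list 1 of 16 was lower and 1 higher (median -0.32), and in the root list 5 of 15 were lower and 1 higher (median 0.02). Their shares called were 11.8%, 12.5% and 40%, beside 8.52% of all genes tested.

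**Figure D2:**
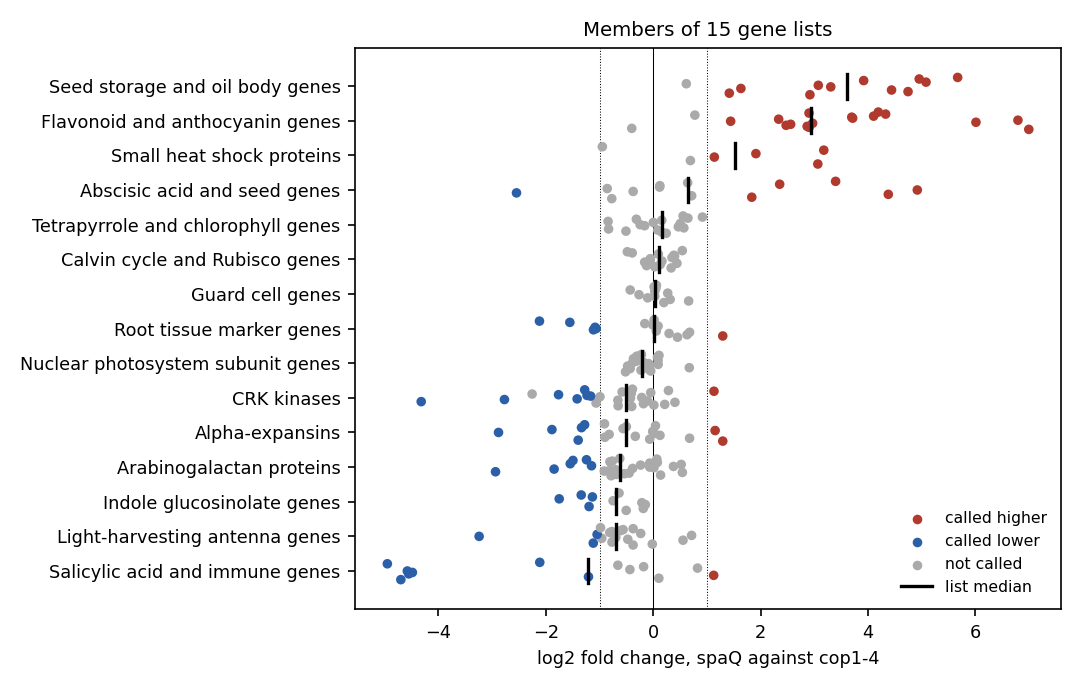
Log2 fold change of *spaQ* against *cop1-4* for every tested member of 15 gene lists, with 1 point per gene (red called higher, blue called lower, grey not called), the list median as a black bar and dotted lines at -1 and 1. Seed storage and flavonoid genes lie to the right with medians of 3.61 and 2.94, and immune genes lie to the left with a median of -1.21.

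Flavonoid and anthocyanin genes were higher in *spaQ*. Flavonoids are made from phenylalanine-derived precursors, with chalcone synthase (CHS) as the entry enzyme, flavonol synthase (FLS1) on the flavonol branch and DFR and LDOX on the anthocyanin branch. Of 20 listed genes 18 passed the filter on low counts, 16 were higher, 0 were lower, and the median was 2.94 beside 0.00 over all genes. The share called was 88.9%, beside 8.52% of all genes tested. The median was 2.90 with *PAP1*, which had no count in *cop1-4*, set at its bound. With the 6 libraries alone in the fit, 17 of the genes were tested, 15 were higher and the median was 2.89. Against Col-0 the list median was 1.69 in *spaQ* and -1.28 in *cop1-4*.

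Promoters of 4 called genes that hold a G-box are printed so that this element can be read. They are the 250 bases before the annotated gene start, from the RefSeq genome TAIR10.1, 5′ to 3′ on the strand of the gene, with the G-box CACGTG, a site recognised by bZIP factors such as HY5, in capitals. The 4 genes were higher in *spaQ*: *CHS* and *F3H* as early enzymes, *MYB12* as their regulator, and the oil body gene *OLEO1* from the seed group described further on. The positions are chr5:4488226-4488475 (plus strand) for *CHS*, chr3:19024942-19025191 (plus) for *F3H*, chr2:19476076-19476325 (plus) for *MYB12* and chr4:12900180-12900429 (plus) for *OLEO1*.
CHS: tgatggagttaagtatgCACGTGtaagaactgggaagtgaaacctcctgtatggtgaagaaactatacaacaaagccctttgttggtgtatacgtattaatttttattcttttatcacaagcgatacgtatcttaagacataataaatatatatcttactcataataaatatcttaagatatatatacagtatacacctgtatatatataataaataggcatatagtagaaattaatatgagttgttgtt
F3H: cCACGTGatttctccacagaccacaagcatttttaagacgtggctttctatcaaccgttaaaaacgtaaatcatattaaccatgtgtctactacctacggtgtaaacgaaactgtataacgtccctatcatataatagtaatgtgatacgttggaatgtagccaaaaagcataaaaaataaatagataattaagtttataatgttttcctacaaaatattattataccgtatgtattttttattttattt
MYB12: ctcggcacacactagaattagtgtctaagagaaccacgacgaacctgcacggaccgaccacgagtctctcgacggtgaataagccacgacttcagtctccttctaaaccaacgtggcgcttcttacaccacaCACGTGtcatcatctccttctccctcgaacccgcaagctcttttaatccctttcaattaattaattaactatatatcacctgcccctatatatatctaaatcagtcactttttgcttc
OLEO1: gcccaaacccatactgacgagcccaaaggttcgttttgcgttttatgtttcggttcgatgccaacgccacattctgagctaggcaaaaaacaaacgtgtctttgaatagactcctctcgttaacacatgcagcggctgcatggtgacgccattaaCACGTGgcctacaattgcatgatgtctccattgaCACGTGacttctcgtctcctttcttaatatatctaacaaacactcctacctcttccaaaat
The first 3 hold 1 G-box each and *OLEO1* holds 2. On both strands the G-box was found in 19.4% of the 588 promoters of genes higher in *spaQ*, in 6.09% of the 1149 of genes lower, and in 7.46% of the 20376 tested genes with such a promoter in the annotation. It was found in 6 of 18 flavonoid promoters and in 6 of 12 seed storage promoters. Flavonoid genes without it included *FLS1*, *CHI* and *LDOX*, which were also higher, so the 4 printed do not stand for their groups. The shorter ACGT core, which the G-box contains, was in 63.4% of promoters of genes higher, 47.3% of genes lower and 44.6% of all. The evening element AAAATATCT, a site of clock-regulated genes, was in 2.21%, 2.61% and 2.41%. A match is a run of letters and not evidence of binding.

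*CHS* (AT5G13930) was read at 27.1, 32.0 and 31.2 CPM in *cop1-4*, at 342, 440 and 392 CPM in *spaQ*, and at 123 to 140 CPM in Col-0. Every *spaQ* library was above every *cop1-4* library, and Col-0 lay between them (3.70 ± 0.08, edgeR adjusted p = 7e-22). *FLS1* (AT5G08640) differed just as far, with 7.41 to 8.48 CPM in *cop1-4* and 96.4 to 111 CPM in *spaQ* (3.71 ± 0.08, edgeR adjusted p = 2.1e-22). *CHI* (AT3G55120), which closes the chalcone ring, lay at 11.6 to 12.5 and 67.2 to 77.4 CPM (2.56 ± 0.08). The hydroxylases followed: *F3'H* differed by 2.34 ± 0.13 and *F3H* by 2.47 ± 0.31, the latter at only 0.26 to 0.41 CPM in *cop1-4*. *F3H* was highest in Col-0, at 3.72 CPM on average beside 1.84 CPM in *spaQ*. *PAL1*, the entry enzyme of phenylpropanoid synthesis and listed with xylem genes, was higher as well (75.9 to 82.6 CPM against 183 to 199 CPM, 1.27 ± 0.05). It too was highest in Col-0, at 289 to 320 CPM.

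Late anthocyanin genes were scarcely read in *cop1-4* or Col-0 and were low but clear in *spaQ*. *DFR*, which makes leucoanthocyanidins, had 0.06 to 0.31 CPM in *cop1-4*, 0.08 to 0.21 CPM in Col-0 and 2.46 to 4.90 CPM in *spaQ* (4.33 ± 0.39, edgeR adjusted p = 8.2e-10). *LDOX*, the next step, had 2 counts in all 3 *cop1-4* libraries and 312 counts in *spaQ*, a ratio of 128 with a 95% counting interval of 35.1 to 1060. *TT19*, a glutathione transferase needed to carry anthocyanin to the vacuole, lay at 0.38 to 0.73 CPM in *cop1-4* and 7.81 to 11.5 CPM in *spaQ* (4.1 ± 0.23). The glycosyltransferase *UF3GT* also separated without overlap (9 counts in *cop1-4* against 207 in *spaQ*, ratio 18.9, 95% counting interval 9.74 to 41.8).

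Regulators of both branches were higher in *spaQ* than in *cop1-4*. *MYB12* (AT2G47460), an activator of flavonol genes, was read at 4.07 to 4.43 CPM in *cop1-4*, at 29.7 to 34.5 CPM in *spaQ* and at 1.63 to 2.25 CPM in Col-0 (2.87 ± 0.10, edgeR adjusted p = 2.5e-17). Its relatives *MYB111* and *MYB11* were also higher in *spaQ* than in *cop1-4*, by 2.90 ± 0.31 and 2.97 ± 0.44. *MYB111* was highest in Col-0, at 16.7 to 21.0 CPM against 2.50 to 3.68 CPM in *spaQ*. On the anthocyanin side *TT8*, a bHLH partner of MYB factors, had 6 counts in all 3 *cop1-4* libraries and 495 in *spaQ*, where it lay at 6.90 to 9.07 CPM (ratio 67.6, 95% counting interval 30.8 to 185). *PAP1* had no count in the *cop1-4* libraries and 0.34 to 1.21 CPM in *spaQ*, at least 4.36-fold higher, while Col-0 had 10.0 to 10.3 CPM. *PAP1* passed the filter on low counts only with Col-0 in the fit. The bHLH genes *GL3* and *EGL3* were not called. *HY5*, the target whose protein the complex removes, was at 29.8 CPM on average in *cop1-4* and 50.8 CPM in *spaQ*, a difference of 0.77 ± 0.06 that stayed under the fold limit. Its transcript was below Col-0 (171 CPM) in both lines.

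**Figure D3:**
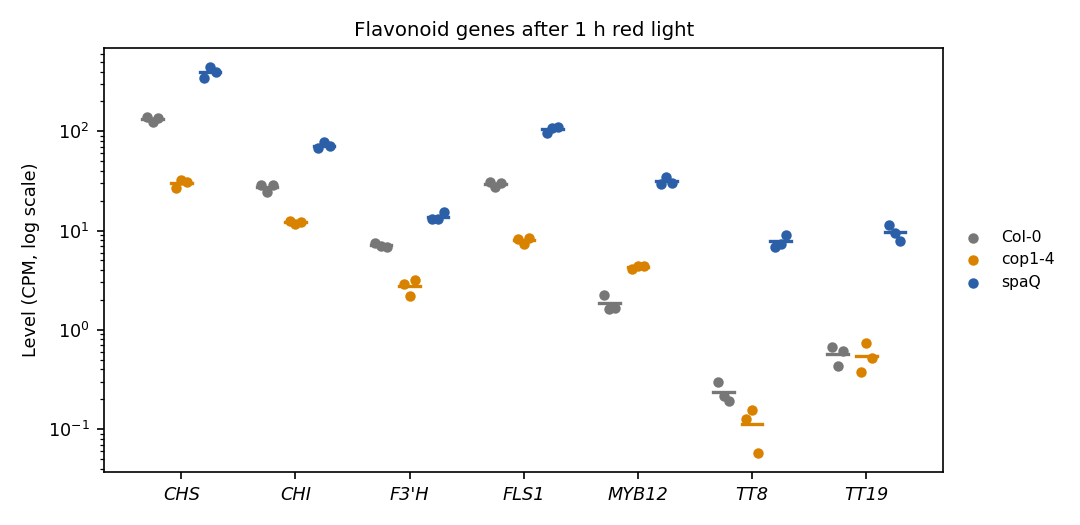
Level of 7 flavonoid genes in CPM on a log axis, with 1 point per library and a line at the mean of 3 libraries. For each gene every *spaQ* library lies above every *cop1-4* library, by 3.70 on the log2 scale for *CHS*.

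Of 49 tested UDP-glycosyltransferases, some of which act on related compounds, 5 were higher in *spaQ* and 1 was lower. The share called was 12.2%, near the 8.52% of all genes tested. *UGT84A1* and *UGT84A2*, glucosyltransferases of hydroxycinnamates, were higher by 2.18 ± 0.15 and 1.36 ± 0.08, and *UGT78D1*, a flavonol rhamnosyltransferase, by 1.08 ± 0.09. None of these exceeded Col-0 on average: in that order Col-0 had 8.12, 214 and 66.45 CPM and *spaQ* 7.55, 133 and 27.87 CPM. *UGT78D1* fell under the fold limit without *cop1-4* replicate 2 (0.99) or *spaQ* replicate 3 (1.00). *UGT73C1* was higher by 2.35 ± 0.10, at 6.52 to 7.84 CPM in *cop1-4*, 35.6 to 41.7 CPM in *spaQ* and 1.37 to 2.28 CPM in Col-0.

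Transcripts of seed storage and oil body proteins were also higher in *spaQ*. Cruciferins and albumins are the reserves of the seed and oleosins coat its oil bodies. Their transcripts are made during seed maturation and normally fade at germination. Of 14 listed genes 12 were tested, 11 were higher, 0 were lower (91.7% called, beside 8.52% of all genes tested), and the median was 3.61. The exception was *SESA4* at 0.62 ± 0.70. The summed level of the list was 1250, 1490 and 2250 CPM in the *spaQ* replicates, 243 to 453 CPM in Col-0, and 5.45, 146 and 3.31 CPM in the *cop1-4* replicates. Most of the *spaQ* sum came from *CRA1* and *CRC*, at 766 and 589 CPM on average. Not every member exceeded Col-0 in *spaQ*. Against Col-0 *CRB*, *SESA1*, *SESA3* and *SESA4* differed by -0.78, -1.71, -0.49 and -3.17, *SESA2* by 0.11, and the list median was 1.3.

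*CRA1* (AT5G44120), a cruciferin, lay at 557, 699 and 1042 CPM in *spaQ* and at 1.44, 68.5 and 0.70 CPM in *cop1-4*, with 86.3 to 175 CPM in Col-0. Replicate 2 of *cop1-4* was far above its partners, yet still below every *spaQ* and Col-0 library (4.95 ± 0.56, edgeR adjusted p = 4.5e-08). Without that library the difference was 9.49 (edgeR adjusted p = 2.49e-15). The albumin *SESA5* (156 to 249 CPM in *spaQ*, 0.35 to 9.76 CPM in *cop1-4*) differed by 5.67 ± 0.32, and by 8.5 without the library. For the oleosin *OLEO1* (27.2 to 43.2 and 0.31 to 3.60 CPM) the values were 4.44 ± 0.35 and 6.62. The whole list kept 11 genes higher without the library, with a median of 6.12. The call for the seed regulator *FUS3*, at under 1 CPM throughout, was lost without *cop1-4* replicate 2 (1.14, edgeR adjusted p = 0.0958), without *cop1-4* replicate 3 (1.22, edgeR adjusted p = 0.0798) and without *spaQ* replicate 3 (1.08, edgeR adjusted p = 0.112). *SESA4* was called without *cop1-4* replicate 2 (2.92).

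**Figure D4:**
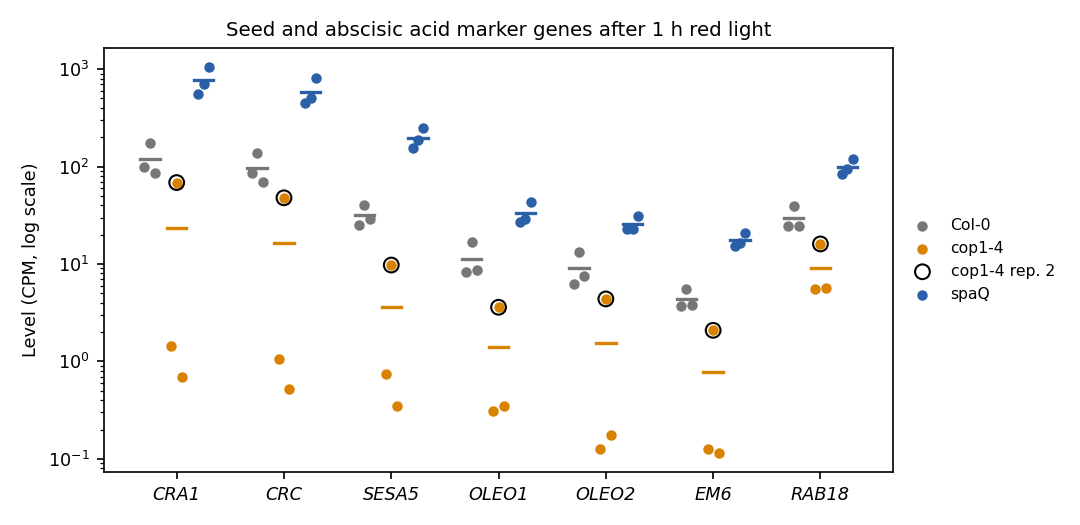
Level of 7 seed and abscisic acid marker genes in CPM on a log axis, with 1 point per library and a line at the mean of 3 libraries, and *cop1-4* replicate 2 circled. For these 7 genes all *spaQ* libraries lie highest, which does not hold for every seed storage gene. The circled library lies between the other *cop1-4* libraries and Col-0.

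Some late embryogenesis genes that answer to abscisic acid were higher too. Abscisic acid holds seeds dormant and switches on these protective proteins. Of 13 tested genes of the list 5 were higher and 1 was lower (46.2% called, beside 8.52% of all genes tested), with a median of 0.64. *EM1* and *EM6*, coding for group 1 late embryogenesis proteins, lay at 14.1 to 21.7 and 15.1 to 20.9 CPM in *spaQ* and at most 2.09 CPM in *cop1-4*. Their differences were 4.92 ± 0.39 and 4.38 ± 0.32, and 8.92 and 7.11 without *cop1-4* replicate 2. The dehydrin *RAB18* was at 84.2 to 119 CPM in *spaQ* and 5.58, 16.1 and 5.69 CPM in *cop1-4* (3.40 ± 0.21, and 4.13 without replicate 2). *RD29B* differed by 2.35 ± 0.15 and was even across the *cop1-4* replicates, at 4.01 to 5.01 CPM. Genes of the hormone's own metabolism were called as well. *CYP707A2*, which inactivates abscisic acid, was higher (19.7 to 24.0 against 68.4 to 83.3 CPM, 1.84 ± 0.08). *NCED3*, a rate-limiting enzyme of abscisic acid synthesis, was lower (1.00 to 1.25 against 0.05 to 0.29 CPM, -2.55 ± 0.45). In Col-0 *CYP707A2* lay at 1.23 to 1.94 CPM and *NCED3* at 10.5 to 15.1 CPM. The receptors' downstream factors *ABI3* and *ABI5* were not called, at -0.37 ± 0.19 and 0.72 ± 0.12. The flavonoid genes did not move with the seed transcripts of *cop1-4* replicate 2, in which the summed flavonoid level was 66.6 CPM beside 64.6 and 68.0 CPM in the other replicates. Of the genes of oil breakdown and the glyoxylate cycle, 0 of 14 were called, with a median of 0.23.

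Both early light-induced genes and a pair of cold-responsive genes were higher in *spaQ*. *ELIP1* (AT3G22840), an early light-induced protein that binds free chlorophyll, lay at 54.2, 51.7 and 52.5 CPM in *cop1-4*, at 398, 412 and 456 CPM in *spaQ* and at 589 to 640 CPM in Col-0. The groups were far apart (3.00 ± 0.06, edgeR adjusted p = 1.8e-22). *ELIP2* gave 71.7 to 74.9, 485 to 513 and 391 to 443 CPM in the same order (2.76 ± 0.06). The antifreeze-like genes *KIN1* and *KIN2* were higher by 4.55 ± 0.12 and 1.93 ± 0.07, and *KIN1* was also above its 6.77 to 7.78 CPM in Col-0, with 45.8 to 57.7 CPM in *spaQ*, while *CBF2*, a regulator of cold genes, was lower (-1.39 ± 0.34). *KIN1* and *KIN2* are close copies, so reads could be shared between them. Of the cold-regulated list, 2 of 11 were higher and 1 was lower (27.3% called, beside 8.52% of all genes tested).

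Superoxide dismutases, which remove superoxide, moved in both directions. *FSD1* (AT4G25100), the iron form of the chloroplast, lay at 325, 284 and 321 CPM in *cop1-4* and at 1126, 1136 and 1004 CPM in *spaQ*, and Col-0 resembled *cop1-4* at 335 to 362 CPM (1.81 ± 0.06, edgeR adjusted p = 2.2e-18). *CSD2*, the copper and zinc form of the chloroplast, went the other way: 551, 551 and 621 CPM in *cop1-4*, 150, 132 and 174 CPM in *spaQ*, and 104 to 116 CPM in Col-0 (-1.92 ± 0.07). *CCS*, which loads copper into these enzymes and was looked up after the values of the others had been seen, was lower too (203 to 228 against 65.0 to 76.6 CPM, -1.60 ± 0.06). The cytosolic *CSD1* differed by -0.68 ± 0.06 and was not called. Small heat shock proteins, chaperones of unfolding proteins, had 4 of 6 tested members higher and 0 lower, with a median of 1.52. The share called was 66.7%, beside 8.52% of all genes tested. *HSP17.6A* lay at 1.28 to 2.26 CPM in *cop1-4* and 13.6 to 17.36 CPM in *spaQ* (3.18 ± 0.17), and the other called members were at or under 2.72 CPM in every library. *HSFA2* and *HSP101* of the heat response were not called.

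Genes of salicylic acid synthesis and immunity were lower in *spaQ*. Salicylic acid is made through isochorismate synthase (ICS1) and PBS3, is switched on by CBP60g and feeds local and systemic resistance. Of 16 listed genes 13 were tested, 7 were lower, 1 was higher and the median was -1.21, or -0.66 with *ALD1*, which had no count in *spaQ*, taken as no difference. The share called was 61.5%, beside 8.52% of all genes tested. *ICS1* (AT1G74710) lay at 29.3, 23.8 and 22.1 CPM in *cop1-4* and 10.2, 10.3 and 12.2 CPM in *spaQ*, with Col-0 at 29.6 to 35.1 CPM (-1.21 ± 0.10, edgeR adjusted p = 2e-10). Its groups did not overlap, and *cop1-4* was close to Col-0. *CBP60G* differed by -2.11 ± 0.32 at 1.41 to 1.80 and 0.29 to 0.43 CPM.

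The 5 other members called lower were at or near the floor in *spaQ*. *PBS3* had 60 counts in the *cop1-4* libraries together and 2 in *spaQ*, a ratio of 36.6 with a 95% counting interval of 9.70 to 309. *FRK1*, a receptor kinase induced by bacterial flagellin, had 66 and 3 counts (ratio 26.8, interval 8.79 to 133), and *FMO1* and *PR1* had 29 and 25 counts against 1 each. *ALD1* rested on 7 counts in *cop1-4*, and its call was lost without *cop1-4* replicate 2 (edgeR adjusted p = 0.103). *PR5* was the member higher in *spaQ*, at 0.25 to 0.36 against 0.53 to 0.87 CPM, and it lost its call in 3 of the 6 tests that left out one *cop1-4* or *spaQ* library. The signalling genes *EDS1*, *NPR1* and *PAD4* were not called, at -0.43 ± 0.09, 0.10 ± 0.06 and 0.82 ± 0.08. With the 6 libraries alone in the fit, 10 of the genes were tested, 4 were lower and the median was -0.55. *PR1*, *ALD1* and *FMO1* passed the filter on low counts only with Col-0 in the fit.

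Some members of families tied to defence were called as well. Cysteine-rich receptor-like kinases (CRKs) had 7 of 26 tested members lower and 1 higher, with a median of -0.50, and WRKY factors had 9 of 53 lower and 1 higher, with a median of -0.18. Their shares called were 30.8% and 18.9%, beside 8.52% of all genes tested. *CRK25* lay at 3.01, 4.43 and 4.07 CPM in *cop1-4* and at 0.18 to 0.19 CPM in *spaQ* (-4.32 ± 0.28, edgeR adjusted p = 1.7e-12). *CRK10* and *CRK11*, neighbours on chromosome 4, were lower by similar amounts (-1.17 ± 0.10 and -1.23 ± 0.09), and *CRK21* was higher (1.13 ± 0.20). *WRKY33*, a regulator of camalexin synthesis, was at 17 to 18 and 6.93 to 8.23 CPM (-1.19 ± 0.09), and *WRKY53* lay at 1.44 to 1.92 and 0.39 to 0.53 CPM (-1.97 ± 0.30). *WRKY18*, a modulator of these responses, was the member that was higher (1.16 ± 0.10).

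The phi class of glutathione transferases carried some of the most precise differences. Of 10 tested members 4 were lower and 2 were higher (60% called, beside 8.52% of all genes tested), with a median of -0.18. *GSTF7* (AT1G02920) lay at 90.4, 83.0 and 81.5 CPM in *cop1-4*, 6.72, 6.98 and 8.05 CPM in *spaQ* and 64.1 to 69.6 CPM in Col-0 (-3.55 ± 0.07, edgeR adjusted p = 2.1e-22). *GSTF2*, a stress-induced member, fell from 57.6 to 61.1 CPM to 14.6 to 15.8 CPM (-1.98 ± 0.06). *GSTF6* and *GSTF4* were lower by 1.19 and 1.64 on the log2 scale. *GSTF6* with *GSTF7*, and *GSTF2* with *GSTF3*, are close copies whose reads may be shared. *GSTF3* was higher at 1.38 ± 0.27, and the other higher member was the anthocyanin gene *TT19*.

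Glucosinolate genes tended to be lower in *spaQ*, on the branch that starts from tryptophan and, by a similar median, on the branch from methionine. Glucosinolates are sulphur-rich defence compounds of the cabbage family. Of 10 indole genes tested 4 were lower, 0 were higher, none had a positive difference, and the median was -0.69. The share called was 40%, beside 8.52% of all genes tested. *CYP83B1* (AT4G31500), which diverts indole-3-acetaldoxime from auxin into glucosinolates, lay at 38.9, 41.5 and 39.0 CPM in *cop1-4*, 11.4, 10.9 and 13.1 CPM in *spaQ* and 89.5 to 96.7 CPM in Col-0 (-1.75 ± 0.07, edgeR adjusted p = 2.3e-16). *CYP79B2* just upstream and *CYP81F2*, which modifies the indole ring, were lower by 1.13 and 1.34 on the log2 scale, and the regulator *MYB122* by 1.19. *MYB34*, the main indole activator, differed by -0.64 ± 0.07.

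For the methionine-derived branch the list medians against Col-0 were 3.97 in *spaQ* and 3.20 in *cop1-4*. The summed level was 116 to 117 CPM in Col-0, 154 to 168 CPM in *cop1-4* and 152 to 165 CPM in *spaQ*, and *SOT17*, a sulphotransferase of the pathway, was below Col-0 in both lines (-1.18 in *cop1-4* and -2.28 in *spaQ*). Between the mutants 3 of 11 tested genes were lower and 0 were higher (27.3% called, beside 8.52% of all genes tested). The median was -0.655, and 2 of the 11 had a positive difference. *MAM3*, an elongation enzyme of methionine side chains, was at 32.5 to 36.8 CPM in *cop1-4*, 16.2 to 19.5 CPM in *spaQ* and at most 0.38 CPM in Col-0. Its difference was -1.01 ± 0.08, and *CYP79F2* and *SOT17* were lower by 1.06 and 1.1. Without *spaQ* replicate 1 these came to -0.96, -0.77 and -0.90, all under the fold limit, and 1 other gene of the list was called. Of all 165 cytochrome P450s tested, 32 were lower and 9 were higher (24.8% called), with a median of -0.35. *CYP71A12* of the camalexin route had 52 counts in *cop1-4* and 1 in *spaQ* (ratio 63.4, 95% counting interval 10.9 to 2550).

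Jasmonate genes split. *VSP1*, a storage protein induced by jasmonate, had 21 counts in *cop1-4* and 2 in *spaQ*, and *LOX4*, a lipoxygenase of the pathway, was lower by 1.67. The allene oxide cyclases *AOC1* and *AOC2*, which close the ring of the precursor, were higher by 1.11 ± 0.16 and 1.05 ± 0.08. In all, 3 of 13 tested genes were lower and 2 were higher (38.5% called, beside 8.52% of all genes tested), with a median of -0.25.

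Among root genes those of the endodermal barrier were lower in *spaQ*. The Casparian strip is the water barrier of the endodermis, built by CASP membrane proteins. All 5 *CASP* genes were lower in *spaQ*, while 0 of the other 10 root markers was lower and 1 was higher. *CASP5* (AT5G15290) lay at 28.8, 28.5 and 30.8 CPM in *cop1-4*, 5.92, 6.89 and 7.52 CPM in *spaQ* and 229 to 244 CPM in Col-0 (-2.12 ± 0.08, edgeR adjusted p = 5.7e-17). *CASP1* to *CASP4* differed by -1.06, -1.08, -1.11 and -1.55, and *CASP1* came to -0.99 without *cop1-4* replicate 3. The fate regulators of the same layer were level between the lines, with *SCR* at -0.01 ± 0.06 and *SHR* at -0.16 ± 0.09, and so was the root tip gene *PLT1* at 0.09 ± 0.15. *EXPA7*, an expansin of root hairs, was the gene that was higher, at 12.3 to 16.3 CPM in *cop1-4* and 33.8 to 39.3 CPM in *spaQ* (1.29 ± 0.09).

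Of 24 tested NPF transporters, a family that carries nitrate and other solutes, 5 were lower and 2 were higher, with a median of -0.22. The share called was 29.2%, beside 8.52% of all genes tested. *NRT1.5* (AT1G32450), which loads nitrate into the xylem, lay at 18, 18.6 and 15.9 CPM in *cop1-4*, 0.98, 1.44 and 1.36 CPM in *spaQ* and 224 to 241 CPM in Col-0 (-3.80 ± 0.12, edgeR adjusted p = 3.2e-18). The tonoplast aquaporin *TIP2;3* showed the same order, with 16.2 to 17.9, 1.02 to 1.54 and 385 to 401 CPM (-3.74 ± 0.12). Both mutants were thus below Col-0 and *spaQ* the further. *PIP2;4* and *TIP2;2* were lower by 2.04 and 1.25, and the nitrate transporter family member AT1G52190 by 2.15. *NRT1.7*, which moves nitrate out of old leaves, was higher (1.52 ± 0.07). Of 25 tested aquaporins 3 were lower and 1, the seed tonoplast protein *TIP3;1*, was higher (3.89 ± 0.43). This was 16% called, beside 8.52% of all genes tested. *TIP3;1* had 2.40 CPM in *cop1-4* replicate 2 and at most 0.13 CPM in the other *cop1-4* libraries.

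UMAMIT transporters, carriers of amino acids, had 7 of 36 tested members lower and 1 higher (22.2% called), with a median of -0.40. Of 8 tested SWEET sugar transporters 1 was lower and 0 were higher (12.5% called, beside 8.52% of all genes tested). *UMAMIT18* lay at 11 to 12 CPM in *cop1-4* and 3.08 to 3.73 CPM in *spaQ* (-1.76 ± 0.10), and *UMAMIT42* was the one higher (1.93 ± 0.17). *SWEET3* was lower at 1.34 to 2.07 against 0.10 to 0.27 CPM (-3.31 ± 0.34). *FIT*, the regulator of iron uptake, was lower by 1.3 on the log2 scale, and 0 of 15 genes of nitrate and sulphate assimilation were called.

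**Figure D5:**
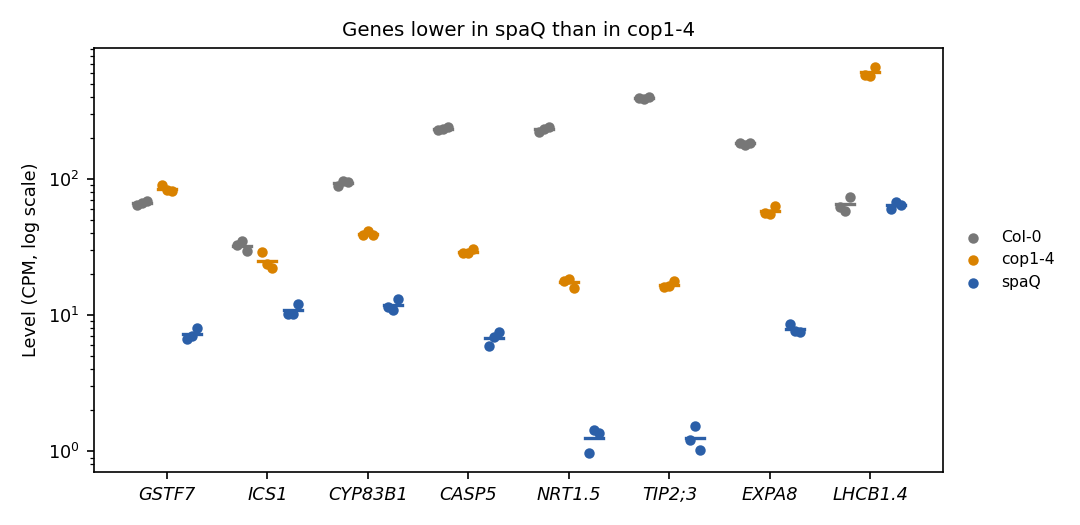
Level of 8 genes lower in *spaQ* than in *cop1-4* in CPM on a log axis, with 1 point per library and a line at the mean of 3 libraries. For *CASP5*, *NRT1.5* and *TIP2;3* both mutants lie below Col-0, for *GSTF7* the *cop1-4* libraries lie above Col-0, and for *LHCB1.4* the *cop1-4* libraries (579 to 664 CPM) stand above the other groups.

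Cell wall genes differed member by member. The shares called were 36.8% for alpha-expansins, 35.5% for xyloglucan endotransglucosylases and 22.2% for arabinogalactan proteins, beside 8.52% of all genes tested. Alpha-expansins, which loosen walls, had 5 of 19 tested members lower and 2 higher, with a median of -0.50. *EXPA8* (AT2G40610) lay at 56.9, 55.1 and 63.6 CPM in *cop1-4*, 8.59, 7.61 and 7.56 CPM in *spaQ* and 178 to 186 CPM in Col-0 (-2.88 ± 0.07, edgeR adjusted p = 1.7e-20). *EXPA5* and *EXPA11* were lower by 1.89 and 1.4. Xyloglucan endotransglucosylases, which cut and rejoin wall polymers, were split almost evenly with 6 of 31 higher and 5 lower. *XTR7* was higher (35.0 to 38.2 against 88.1 to 95.2 CPM, 1.32 ± 0.06), *XTH25* was higher (2.97 ± 0.22), and *XTH17* was lower (-1.54 ± 0.13). *XTH21*, also called lower, had 52 counts in *cop1-4* and 3 in *spaQ* (ratio 21.1, 95% counting interval 6.85 to 106). Arabinogalactan proteins had 6 of 27 lower and 0 higher, led by *AGP30*, known from roots, at 7.33 to 8.29 against 0.92 to 1.26 CPM (-2.94 ± 0.19). *AGP4* was lower by 1.55.

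Hormone genes of growth were called in both directions. The shares called were 26.3% for gibberellin, 19.1% for SAUR, 14.8% for Aux/IAA and 14.3% for brassinosteroid genes, beside 8.52% of all genes tested. SAUR genes, short-lived auxin-induced growth regulators, had 10 of 68 tested members lower and 3 higher, with a median of -0.27. *SAUR26* and *SAUR28* are nearby genes on chromosome 3. *SAUR26* was lower by 2.13 at no more than 1.39 CPM, and *SAUR28* had 35 counts in *cop1-4* and 6 in *spaQ* (ratio 7.12, 95% counting interval 2.96 to 20.7), whereas *SAUR74* and *SAUR46* were higher by 1.5 ± 0.15 and 2.16 ± 0.20. The auxin synthesis gene *YUC5* was higher (0.31 to 0.56 against 2.08 to 2.58 CPM, 2.36 ± 0.28), and the repressor *IAA3* was lower (-1.3 ± 0.12). In the gibberellin list 4 of 19 were higher and 1 was lower, and both inactivating and activating enzymes were among those higher: *GA2OX8* (3.02 ± 0.27), *GA2OX2* (1.02 ± 0.11) and *GA3OX2* (1.44 ± 0.18). *GA2OX2* came under the fold limit without *cop1-4* replicate 2 (0.95) or *spaQ* replicate 3 (0.95). The final enzymes of brassinosteroid synthesis parted, with *BR6OX1* lower (-1.67 ± 0.25) and *BR6OX2* higher (1.18 ± 0.07).

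PIF4, a growth-promoting bHLH factor bound by phytochrome B, had less transcript in *spaQ*. *PIF4* lay at 43.6, 41.9 and 46.6 CPM in *cop1-4*, 19.5, 18.2 and 17.8 CPM in *spaQ* and 32.4 to 34.3 CPM in Col-0 (-1.25 ± 0.06, edgeR adjusted p = 2.4e-14). Both mutants thus lay on opposite sides of Col-0, and the other 7 *PIF* genes were not called. Of 14 shade markers driven by PIFs 4 were lower and 1 was higher (35.7% called, beside 8.52% of all genes tested), with a median of -0.64. Their summed level was nonetheless higher in *spaQ*, at 193 to 208 CPM beside 156 to 164 CPM in *cop1-4*. Both lines were below the 621 to 632 CPM of Col-0, and the list medians against Col-0 were -1.66 and -1.62. *ATHB2* and *HAT3*, homeodomain factors of shade avoidance, were both lower by 1.19 on the log2 scale, and *FHL*, a nuclear import helper of phytochrome A, by 1.54. *PAR1*, an HLH inhibitor of PIFs, was lower by 1.06, and came to -0.996 without *cop1-4* replicate 3. Its relative *PAR2* lay just inside the fold limit and was not called, at 13.9 to 15.7 CPM in *cop1-4* and 6.69 to 8.32 CPM in *spaQ*.

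Of the photosynthesis lists, the one with called genes was that of the antenna. The shares called were 0 of 22 for nuclear photosystem subunits, 0 of 16 for the Calvin cycle and Rubisco and 0 of 17 for tetrapyrrole and chlorophyll synthesis, with medians of -0.21, 0.11 and 0.16. Antenna proteins, which collect light for the photosystems, had 3 of 19 tested members lower and 0 higher (15.8% called, beside 8.52% of all genes tested). The median was -0.70, and 2 of the 19 had a positive difference. Their summed level was 37500 to 41400 CPM in *cop1-4*, 23200 to 24700 CPM in *spaQ* and 11200 to 12500 CPM in Col-0. Against Col-0 the list median was 1.01 in *spaQ* and 1.76 in *cop1-4*, so both lines were above the wild type. *LHCB1.4* (AT2G34430) was unlike the rest: it lay at 586, 579 and 664 CPM in *cop1-4*, at 60.9, 67.8 and 64.5 CPM in *spaQ*, and at 58.6 to 74.3 CPM in Col-0 (-3.24 ± 0.07, edgeR adjusted p = 8.7e-22). Its *spaQ* libraries thus overlapped Col-0. *LHCB1.2* and *LHCB4.2* were lower by 1.12 and 1.04, and *LHCB1.3* differed by -0.74 ± 0.06. The *LHCB1* genes are near-identical copies, so reads could be split between them. With library size as the sole scaling 5 antenna genes were lower.

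Of 14 tested flowering genes 2 were higher and 2 were lower (28.6% called, beside 8.52% of all genes tested), with a median of -0.16. *SOC1*, a flowering integrator, was higher (13.9 to 17.2 against 35.9 to 42.1 CPM, 1.3 ± 0.09), and the floral repressor *SNZ* was lower (30.9 to 31.1 against 11.6 to 12.2 CPM, -1.38 ± 0.07). *SOC1* was at 0.87 to 1.46 CPM in Col-0. *SPL4*, another flowering activator, was higher at 1.47 ± 0.29. *TSF*, a relative of the flowering signal FT, was the other lower gene at 0.26 to 0.56 against 0.14 to 0.18 CPM (-1.33 ± 0.55, edgeR adjusted p = 0.044). Its call was lost in 5 of the 6 tests that left out one *cop1-4* or *spaQ* library. The clock-related MYB gene *RVE2* was higher by 1.15 ± 0.06, at 29.0 to 30.2 CPM in *cop1-4*, 62.5 to 71.0 CPM in *spaQ* and 263 to 275 CPM in Col-0. Of the evening clock genes 0 of 12 were called. *BBX20*, a B-box factor that works with HY5, was higher in *spaQ* than in both other groups (21.1 to 27.1 CPM beside 6.10 to 6.62 in *cop1-4* and 8.13 to 9.54 in Col-0, 1.92 ± 0.10).

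By size alone, the 10 genes furthest up and the 10 furthest down were taken among called genes with an average level of at least 3 log2 CPM and no overlap. Of the 10 up, *SESA5*, *CRC*, *CRA1*, *ATECP31*, *M17*, AT1G68250 and AT5G22470 were more than 4 times higher in *cop1-4* replicate 2 than in the other *cop1-4* libraries. The first 5 code for seed proteins and AT5G22470 for a poly-ADP-ribose polymerase. AT1G68250, an uncharacterized gene, rose from 0.44, 12.3 and 0.06 CPM to 380, 390 and 517 CPM (6.54 ± 0.35, and 10.8 without that library). 2 uncharacterized genes were free of that pattern. AT3G01345 had 7 counts in the *cop1-4* libraries and 93.5, 105 and 94.8 CPM in *spaQ*, a ratio of 729 with a 95% counting interval of 354 to 1810, and AT3G43850 had 1 count and 16.7 to 21.2 CPM (ratio 971, interval 174 to 38400). AT5G04120, a phosphoglycerate mutase-like gene, met the rule through its 138 to 143 CPM in Col-0: it had no count in *cop1-4* and 0.10 to 0.39 CPM in *spaQ*, at least 1.44-fold higher.

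Of the 10 down, *GSTF7*, *NRT1.5* and *TIP2;3* were described above. *OSM34*, an osmotin, fell from 15.1 to 16.9 CPM to 0.44 to 0.67 CPM (-4.79 ± 0.15, edgeR adjusted p = 1e-18), and Col-0 was at 25 to 26.6 CPM. *GH9B15*, a glycosyl hydrolase of the endoglucanase family, was at 246, 232 and 164 CPM in *cop1-4* and 17, 13.2 and 21.4 CPM in *spaQ* (-3.64 ± 0.14). AT3G05945, a gene without a product name, had 31.7 to 35.4 CPM in *cop1-4*, 33.4 to 34.1 CPM in Col-0 and 1.89 to 2.31 CPM in *spaQ* (-4.02 ± 0.10), with *cop1-4* at the level of Col-0. The lipid transfer-like genes AT5G46890 and AT3G53980 were lower by 3.30 and 3.56, and AT3G13980, with a SKI/DACH domain, by 3.31. AT4G17470, an alpha/beta-hydrolase gene, had no count in *spaQ* and 0.06 to 0.35 CPM in *cop1-4*, at least 1.59-fold lower, and was read at 20.5 to 23.2 CPM in Col-0.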

How the data were processed

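RNA was sequenced from whole seedlings. The authors used FastQC for read quality, TopHat with Bowtie2 for alignment to TAIR10 and HTSeq for gene counts, and deposited the raw counts. The strand setting of the counting was not given in the sources used here, so overlapping genes and close copies carry uncertain counts. Of 33655 features, all 32548 Arabidopsis loci matched the RefSeq TAIR10.1 annotation, which gave symbols, products and promoters. The counts carry no coordinates, and all coordinates are TAIR10.1.

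Genotypes were compared with edgeR 4.0.16 in R 4.3.3 (quasi-likelihood F-test, TMM scaling, filterByExpr, Benjamini-Hochberg adjustment over 20396 genes) on 9 libraries (*spaQ*, *cop1-4* and Col-0 in red light), with the contrast *spaQ* minus *cop1-4*. A gene was called at adjusted p under 0.05 and absolute log2 fold change over 1. The test was first tried on simulated data. The genes named were those mutated, the 10 largest differences in each direction among called genes with average log2 CPM of at least 3 and no overlap, and, per list, up to 4 called members a direction besides those named for their place in a pathway. *CCS* was chosen after its values were seen. A group with no count was set at 3 counts per library, and a group at or under 3 counts in every library gave a ratio with an exact binomial 95% interval. Promoter motifs were counted without a test. Members and lists were chosen with earlier results of these data known. Alternatives were DESeq2 1.42.0, its size factors, library size alone, other count filters, other sets of libraries, a replicate block, other fold limits and leaving out each library.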

Additional observations from a re-analysis of the deposited data

How the results depend on the processing

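Of 1737 genes called, the count moved by more than 1.5 times under 3 alternatives: 919 genes with at least 10 counts required in every library (260 higher, 659 lower), 526 with a log2 fold limit of 2, and 10762 with no fold limit (5439 higher, 5323 lower). The first tests fewer genes and leaves out those at the floor in 1 line, and left 8 flavonoid genes, 6 of them higher, and 1 seed storage gene, which was higher. Of the seed storage genes, DESeq2 called 8 higher of 11 and the fit to all 21 libraries 9 of 12. Over all genes, DESeq2 called 1770, DESeq2 size factors 1738, library size alone 1798, no count filter 1918, the 6 libraries alone 1555 and all 21 libraries 1750. Leaving out 1 library gave 1728 to 1778, and 1562 to 1725 of the 1737 genes were called again. Leaving out *cop1-4* replicate 2 and *spaQ* replicate 1 together, chosen after seeing the data, gave 1691. Replicate numbers did not pair *spaQ* with *cop1-4*: deviations of libraries with the same number correlated at 0.07, -0.02 and -0.06, and the replicate block gave 1738. Between Col-0 and *spaQ* the values were 0.01, -0.005 and -0.05. Between Col-0 and *cop1-4* they were all positive, at 0.05, 0.155 and 0.07, with the largest for replicate 2. Col-0 replicate 2 also had the highest summed seed storage level in Col-0 (453 CPM beside 268 and 243). Why was not tested. No named gene reversed a called direction under these settings.

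Depth limits the genes under about 1 CPM, among them most immune markers, *FUS3* and *PR5*. *VSP1*, *SAUR28*, *TSF*, *SESA4*, *CYP71A12* and AT4G17470 also passed the filter on low counts only with Col-0 in the fit. DESeq2 did not call *PR5* (DESeq2 adjusted p = 0.144), *FUS3* (DESeq2 adjusted p = 0.0633), *TSF* (DESeq2 adjusted p = 0.117) or *SESA1* (DESeq2 adjusted p = 0.134). The cause was not tested. Level differences without dark libraries cannot be read as responses to red light.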
